A study of Homo sapiens with 4 samples.

Results

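DNAH14 encodes a heavy chain of axonemal dynein, and its circular RNAs were followed here in radiation-resistant breast cancer cells with and without knockdown of HNRNPL. Members were the back-splice positions of the deposited count table that listed DNAH14 among their genes and were not of the antisense type. There were 407 of them among 211599 positions in all, and each named DNAH14 and no other gene. A position, defined by its start and end, is called a circle below. The gene was chosen because the shares of its circles differed between the groups, so its own contrast is given as a description with no test.

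The cells were MDA-MB-468, an established basal-like breast cancer line, in a derivative made resistant by a total of 50 Gy of fractionated radiation. Both groups carried this resistance. The control group held 2 libraries of cells with a control hairpin RNA (shCtrl), and the knockdown group held 2 libraries of cells with a stable hairpin against HNRNPL. The protocols name a single hairpin, shHNRNPL-1, so effects of HNRNPL and of that hairpin cannot be told apart, and unirradiated parental cells are not analysed here. The labels call the 2 libraries of each group biological replicates, with no more on how the cultures were separated. RNA was copied from random hexamers with the Induro reverse transcriptase, amplified with phi29 polymerase and read on a nanopore instrument, a method that reads circles through their whole length.

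A circular RNA forms when the splicing machinery joins the downstream end of an exon to the upstream end of the same or an earlier exon, which is called back-splicing. A gene with many exons can yield many circles, each set by the pair of exon boundaries that are joined. HNRNPL is an RNA-binding protein that regulates splice site choice, and axonemal dynein heavy chains are very large motor proteins that drive the beating of cilia and sperm tails.

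Total counts per library were between 282737 and 556578. No position named HNRNPL, so the knockdown rests on the labels. Control replicate 1 stood apart: intron circles made up 19.7% of its counts and antisense circles 6.79%, against at most 10.6% and 2.69% in the other 3 libraries. The biological coefficient of variation, the spread between replicates beyond counting error, was 0.886 for the controls and 0.140 for the knockdowns. Of the basal breast markers, EGFR (12 to 115 counts) and ITGA6 (16 to 84) had circles in every library. KRT14 and KRT17 had none, and KRT5 and TP63 had counts in control replicate 1 alone. EPCAM and CDH1, general epithelial markers, had circles in every library. Of the luminal markers, ESR1 had 13, 5, 3 and 1 counts in control 1, control 2, knockdown 1 and knockdown 2, GATA3 had 12 in control replicate 1 and 0 in the others, and PGR had none. Circles of the leukocyte, endothelial and fibroblast markers PTPRC, PECAM1 and COL1A1 were at 0 in all 4 libraries. Only circular RNA was read, so a gene at 0 here may still have mRNA.

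DNAH14 circles were more abundant in both knockdown libraries than in either control. They had 786 and 1479 counts in control replicates 1 and 2, and 2672 and 4477 counts in knockdown replicates 1 and 2. Per 100000 counts of the library this was 166 and 266 in the controls, against 945 and 1146 in the knockdowns. The groups did not overlap, and the means were 216 ± 70.3 and 1046 ± 142 per 100000 (SD, n = 2), a ratio of 4.84, or 3.94 against control replicate 2 alone. Among host genes ranked by circular counts, DNAH14 was at place 38 and 32 in the controls and at place 6 and 3 in the knockdowns. In bulk RNA, more cells that make a circle and more circles per cell cannot be told apart.

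In the fit over all 5911 host genes with edgeR, the log2 fold change of DNAH14 was 2.55 ± 0.63 (SE), and the median host gene was at -0.27. With library-size scaling these values were 2.21 and -0.67. Without control replicate 2 the DNAH14 value was 3.25. In that fit 87 host genes (1.47%) rose and 2 (0.0338%) fell at an adjusted p under 0.05 by edgeR's quasi-likelihood test, and DNAH14 was chosen on this contrast. These counts rest on the setting: 61 rose and 9 fell with library-size scaling, 708 and 559 without control replicate 1, 1058 and 1056 without control replicate 2, and 0 and 0 with the other dispersion method of edgeR.

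DNAH14 lies on the plus strand of chromosome 1, at chr1:224929654-225399286 in GRCh38.p14, the build in the submitters' processing notes, and spans 469.633 kb. Its circles used 104 different starts and 91 different ends, all on the plus strand. Of the 407, 322 were typed as exon and 85 as intron circles, and 397 had the splice motif AG-GT, the letters on either side of a standard back-splice, which carried 99.6% of the counts. Lengths ran from 345 to 6078 nt with a median of 1739 nt, and the number of exons from 1 to 29 with a median of 10. The deposited table listed more than 1 internal splice form for 136 of them, with at most 6. Exon numbers here and below are those of the first form listed.

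Most DNAH14 circles were rare. There were 15 listed with 0 counts, 265 with 1 to 9 counts, which held 10.0% of the gene's counts, and 127 with at least 10 counts. Counts were found for 191 and 223 circles in the controls and for 242 and 289 in the knockdowns, and 99 circles had counts in every library. A further 108 circles had counts in the knockdown libraries and not in the controls, and 70 in the controls and not in the knockdowns. DNAH14 had 786 and 1479 counts in the controls against 2672 and 4477 in the knockdowns, and such numbers depend on depth. The same numbers over all circles were not taken, so nothing is read from them. Over the whole series, 106227 and 77209 positions had counts in the controls, against 62513 and 74531 in the knockdowns. A circle with no read in a library may still lie under a limit of 3 counts, or 0.635 and 0.539 per 100000 in the controls, against 1.06 and 0.768 per 100000 in the knockdowns.

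Circles that begin at one exon dominated after knockdown. That start, at position 224952670 and 23.0 kb into the gene, was shared by 22 circles. They held 10.2% of DNAH14 counts in control replicate 1 (95% Wilson interval 8.25 to 12.5) and 22.1% in control replicate 2 (20.1 to 24.3). They held 51.6% in knockdown replicate 1 (49.7 to 53.5) and 54.6% in knockdown replicate 2 (53.1 to 56.0). The knockdown libraries lay close together and far above both controls, which differed from each other by more than their intervals. The group means were 16.1 ± 8.44% and 53.1 ± 2.12% (SD, n = 2). These intervals take each read as a separate molecule and leave out the spread between replicates. Amplified copies carried no molecular identifier, so the intervals may be too narrow.

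The 4 circles that held at least 5% of DNAH14 counts in any library all began there. Their ends lay 39.2, 44.5, 77.9 and 94.2 kb from the gene start. In the first form listed, they contained the first 6, 7, 9 and 10 exons of one chain of 21 exons. They had 3, 4, 3 and 4 internal splice forms listed, and the counts of each circle pool its forms. This chain is that of the circle chr1:224952670-225097239. In the chain, the distance from exon 7 to exon 8 is 28629 nt, the longest in it, followed by 27411 nt after exon 16. No DNAH14 circle from this start ended at exon 8, while exon 8 itself served as a start of other circles at position 225002783.

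The shortest of the 4, chr1:224952670-224968874, has 6 exons and 800 nt. Its counts were 2 and 24 in the controls, against 221 and 392 in the knockdowns, which is 0.254%, 1.62%, 8.27% and 8.76% of the gene. The mean levels were 2.37 ± 2.75 and 89.3 ± 15.7 per 100000 (SD, n = 2), with no overlap of the groups and a ratio of 37.7, or 20.7 against control replicate 2 alone.

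The 7-exon circle chr1:224952670-224974153, of 863 nt, was the most abundant DNAH14 circle in both knockdown libraries. It had 5 and 62 counts in the controls, against 361 and 612 in the knockdowns, or 0.636%, 4.19%, 13.5% and 13.7% of the gene. The means were 6.10 ± 7.13 and 142 ± 20.5 per 100000 (SD, n = 2), a ratio of 23.3, or 12.8 without control replicate 1. The controls were far apart here, and both lay below the knockdowns.

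The 9-exon circle chr1:224952670-225007544, of 1140 nt, was the leading one of the 4 in both controls. Its counts were 28 and 108 in the controls, against 340 and 589 in the knockdowns, or 3.56%, 7.30%, 12.7% and 13.2% of the gene. The means were 12.7 ± 9.53 and 136 ± 21.6 per 100000 (SD, n = 2), a ratio of 10.7. This was the smallest ratio of the 4, and it was 6.98 without control replicate 1.

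The 10-exon circle chr1:224952670-225023865, of 1391 nt, had 19 and 51 counts in the controls, against 200 and 446 in the knockdowns. Its shares were 2.42%, 3.45%, 7.49% and 9.96%. The means were 6.59 ± 3.64 and 92.5 ± 30.7 per 100000 (SD, n = 2), a ratio of 14.03, or 10.1 without control replicate 1. Together the 4 circles held 6.87% and 16.6% of DNAH14 counts in the controls, against 42.0% and 45.5% in the knockdowns.

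The letters that repeat at the 2 sides of these junctions, and so leave the exact joining point open to a shift, were G, CAG, AG and CAG in the order of their ends. The smallest top share among the 4 was 8.76%, and the largest share of any other DNAH14 circle was 4.33%.

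**Figure D1:**
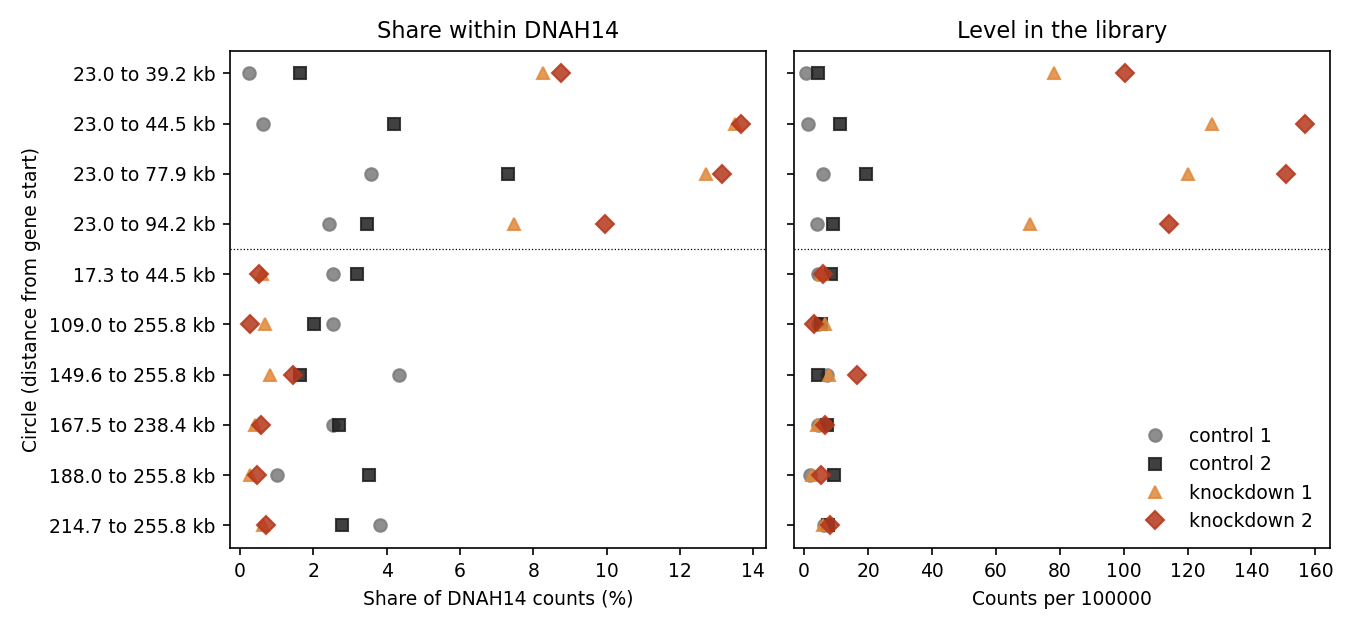
Share of DNAH14 counts (left, %) and counts per 100000 of the library (right) of 10 DNAH14 circles in the 4 libraries, 1 point per library. Above the dotted line, the 4 circles that start 23.0 kb into the gene lie between 7.49% and 13.7% in the knockdown libraries and at or under 7.30% in the controls, while the 6 circles below it, picked for a lower share after knockdown, have level ratios between 0.712 and 2.12.

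The mix of ends among the circles from the 23.0 kb start was not the same in the groups. The 6-exon and 7-exon circles made up 2.50% and 6.25% of that start's counts in control replicate 1, and 7.34% and 18.96% in control replicate 2. In the knockdowns the 6-exon circle held 16.04% and 16.05%, and the 7-exon circle 26.2% and 25.1%. The 9-exon circle went the other way, from 35.0% and 33.0% in the controls to 24.7% and 24.1% in the knockdowns. The 10-exon circle overlapped between groups, at 23.8%, 15.6%, 14.5% and 18.3%.

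Longer exon-type circles from the same start with at least 10 counts were also more abundant in both knockdowns than in both controls. The 14-exon circle chr1:224952670-225043983 had 0 and 15 counts in the controls, against 66 and 101 in the knockdowns. The 16-exon circle ending at 225051795 had 1 and 3 against 48 and 99, and the 21-exon circle ending at 225097239 had 5 and 17 against 71 and 98. The 2 intron-type circles from this start with at least 10 counts differed from them: the one ending at 224980270 had 10 and 9 counts in the controls and 0 and 4 after knockdown, and the one ending at 225072895 had 6 and 8 against 5 and 5. Of the circles with fewer counts, those ending at 224967514, 224975372, 224999440, 225043114, 225058176 (0, 3, 1 and 2 counts) and 225085789 (0, 2, 2 and 0) overlapped between the groups. Those ending at 225117999 (0, 0, 1 and 1) and 225119294 (0, 0, 3 and 3) had counts in the knockdowns alone.

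Among the 10 most used starts, no other had a higher share in both knockdowns than in both controls. The next most used start, 225079207, held 16.9% and 8.38% in the controls, against 7.60% and 7.51% in the knockdowns. The start at exon 8, 225002783, held 7.63%, 6.36%, 7.04% and 7.10% in control 1, control 2, knockdown 1 and knockdown 2, so its share overlapped between groups at a level ratio of 5.00. The start at 225144397, 214.7 kb into the gene, held 9.92% and 9.06% in the controls, against 2.36% and 2.41% in the knockdowns, at a level ratio of 1.23.

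By end, several boundaries held more of the gene after knockdown and others less. The end at 225051795, at exon 16 of the chain, had 6 and 7 counts in the controls and 127 and 252 after knockdown, or 0.763% and 0.473% against 4.75% and 5.63%, with a level ratio of 43.3 over its 12 circles. The end at 225097239, the most used of all with 25 circles, held 9.41% and 7.71% in the controls, against 17.6% and 14.1% in the knockdowns, at a level ratio of 9.09. Both of these ends had separate groups in share and in level.

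The end at 225185425, 255.8 kb into the gene and shared by 28 circles, was the leading end in the controls with 19.7% and 18.4%, and held 5.31% and 6.28% in the knockdowns. Its level was 32.8 and 48.9 per 100000 in the controls, against 50.2 and 72.0 in the knockdowns, a ratio of 1.496. The end at 225168028 held 11.8% and 9.67% against 2.17% and 2.41%, at a level ratio of 1.06. These ends held less of the gene after knockdown at level ratios far below the 4.84 of the gene as a whole.

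**Figure D2:**
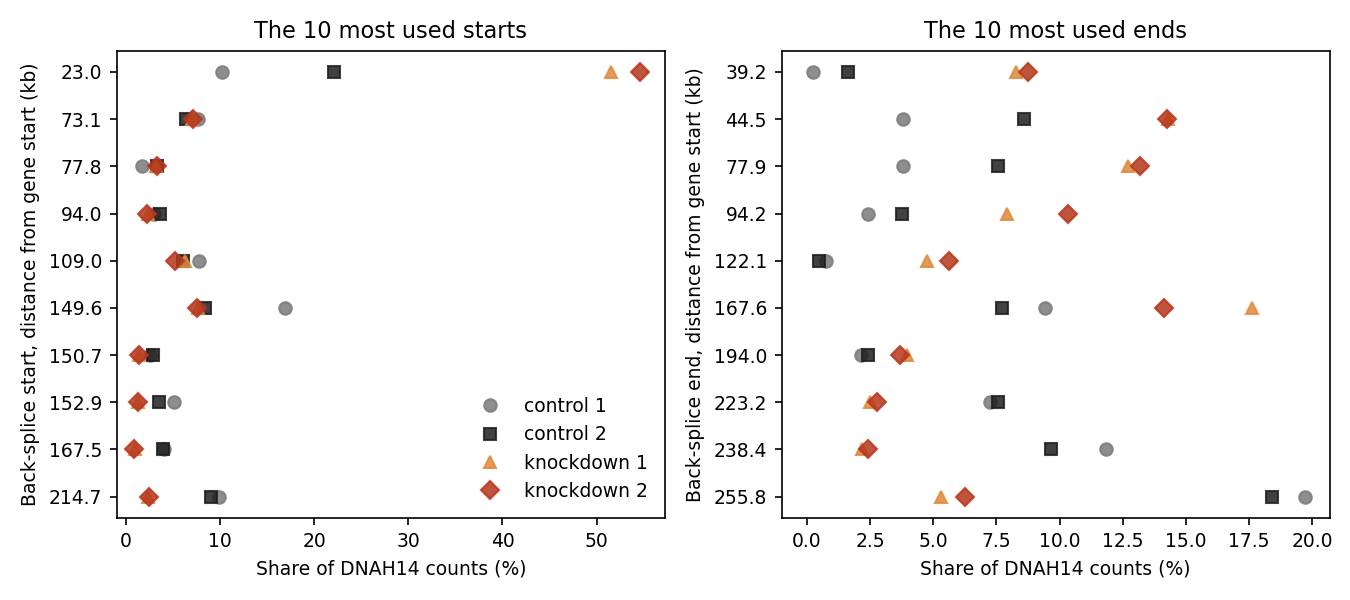
Share of DNAH14 counts (%) at the 10 most used back-splice starts (left) and ends (right), ordered by distance from the gene start in kb, 1 point per library. Among starts the one at 23.0 kb moves from 10.2% and 22.1% in the controls to 51.6% and 54.6% in the knockdowns, and among ends those from 223.2 kb on are lower in both knockdown libraries than in both controls.

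The circles were then grouped by start and end. These classes were drawn after the values were seen. Circles from the 23.0 kb start stood at 16.9 and 58.8 per 100000 in the controls and at 487 and 626 in the knockdowns, a ratio of 14.7, or 9.47 without control replicate 1. The 104 circles from other starts that end by 225097239, 167.6 kb into the gene, stood at 30.9 and 35.9 in the controls, against 209 and 217 in the knockdowns, a ratio of 6.37. The 35 that end between there and 200 kb stood at 6.56 and 7.19 against 46.7 and 53.3, a ratio of 7.27. All 3 classes had knockdown levels several times those of the controls, and the controls lay closer together in the last 2 of them.

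The 183 circles that end between 200 and 320 kb formed the exception. Their level was 97.6 and 147 per 100000 in the controls, against 149 and 196 in the knockdowns, a ratio of 1.41, or 1.17 without control replicate 1. Control replicate 2 and knockdown replicate 1 lay next to each other, at 147 and 149. In share of the gene, this class held 58.7% and 55.3% in the controls, against 15.7% and 17.1% in the knockdowns. The 63 circles that end beyond 320 kb again stood apart, at 14.4 and 16.9 per 100000 against 53.8 and 54.5, a ratio of 3.46.

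**Figure D3:**
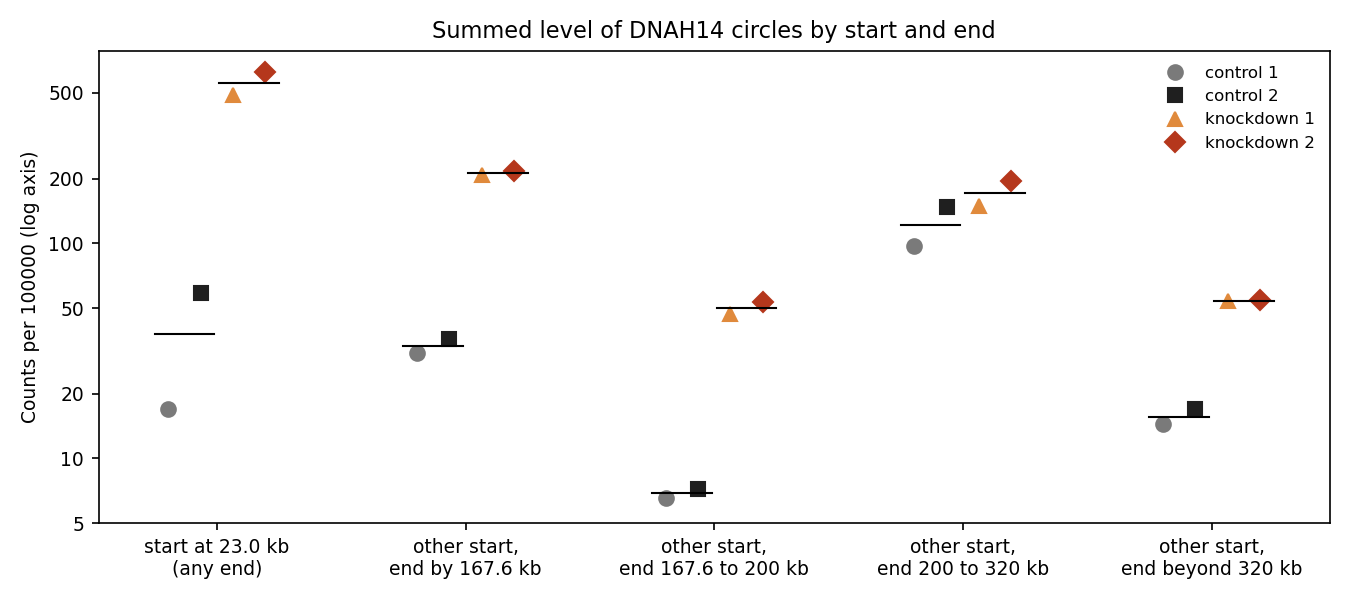
Summed level of DNAH14 circles (counts per 100000, log axis) in 5 classes of start and end position, 1 point per library, with a black line at each group mean. In the class that ends 200 to 320 kb from the gene start the knockdown mean is 1.41 times the control mean, and in the other 4 classes it is between 3.46 and 14.7 times.

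The single circles in this paragraph are examples from these classes, picked after their values were seen. Among circles from other starts with at least 10 counts, some went the other way. A log2 fold change below 0 was found for 2 of 27 that end by 167.6 kb. It was also found for 2 of 14 that end from there to 200 kb and 4 of 14 that end beyond 320 kb. From the 149.6 kb start, the circle that ends at 225097239 had 25 and 24 counts in the controls, against 97 and 149 in the knockdowns, a level ratio of 7.54. From the same start, the circle that ends at 225185425 had 34 and 24 counts against 22 and 65, a ratio of 2.12. The 7-exon circle chr1:225002783-225043983 had 0 counts in both controls and 27 and 25 in the knockdowns, which is 9.55 and 6.40 per 100000. At the far end of the gene, chr1:225264197-225290082 had 1 and 1 counts in the controls, against 18 and 19 in the knockdowns.

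The 6 circles with the largest drops in share were picked after their values were seen. One is the circle from 225079207 to 225185425 above, and the levels of the other 5 overlapped between the groups. The 8-exon circle chr1:225144397-225185425, of 1085 nt, had 30, 41, 17 and 32 counts in control 1, control 2, knockdown 1 and knockdown 2. It held 3.82% and 2.77% of the gene in the controls, and 0.636% and 0.715% after knockdown. Its level was 6.35, 7.37, 6.01 and 8.19 per 100000, a ratio of 1.04 with overlapping groups. The intron-type circle chr1:224946943-224974153 begins upstream of the 23.0 kb start and shares its end with the 7-exon circle. It had 20, 47, 16 and 23 counts, a level ratio of 0.911, against 23.3 for the circle with the shared end.

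For chr1:225097118-225168028 the counts were 20, 40, 11 and 25 in the same order, with a level ratio of 0.901. The circle chr1:225038694-225185425 was at a ratio of 0.981, and chr1:225117684-225185425 was at 0.712. Without control replicate 1 the latter was at 0.420, chr1:224946943-224974153 at 0.684 and chr1:225097118-225168028 at 0.716. These were then lower in both knockdowns than in control replicate 2, as were 44.9% of all circles with at least 10 counts.

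Intron-type circles as a whole were flat. They had 139 and 153 counts in the controls, against 70 and 111 in the knockdowns, which is 29.4, 27.5, 24.8 and 28.4 per 100000 and a ratio of 0.934. Exon-type circles stood at 137 and 238 per 100000 in the controls, against 920 and 1118 in the knockdowns, a ratio of 5.43, or 4.28 without control replicate 1. The share of intron circles in the gene was 17.7% and 10.3% in the controls, against 2.62% and 2.48% in the knockdowns. Over whole libraries, intron circles held 19.7% and 10.6% of counts in the controls, against 9.93% and 10.0% in the knockdowns. Control replicate 1 was thus also high in intron circles over the whole library. In it, 1 DNAH14 intron circle, chr1:225382126-225383229, had 17 counts, against 0 in the other 3 libraries. The part of this library's composition in the DNAH14 shares was not tested beyond the values given without it.

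**Figure D4:**
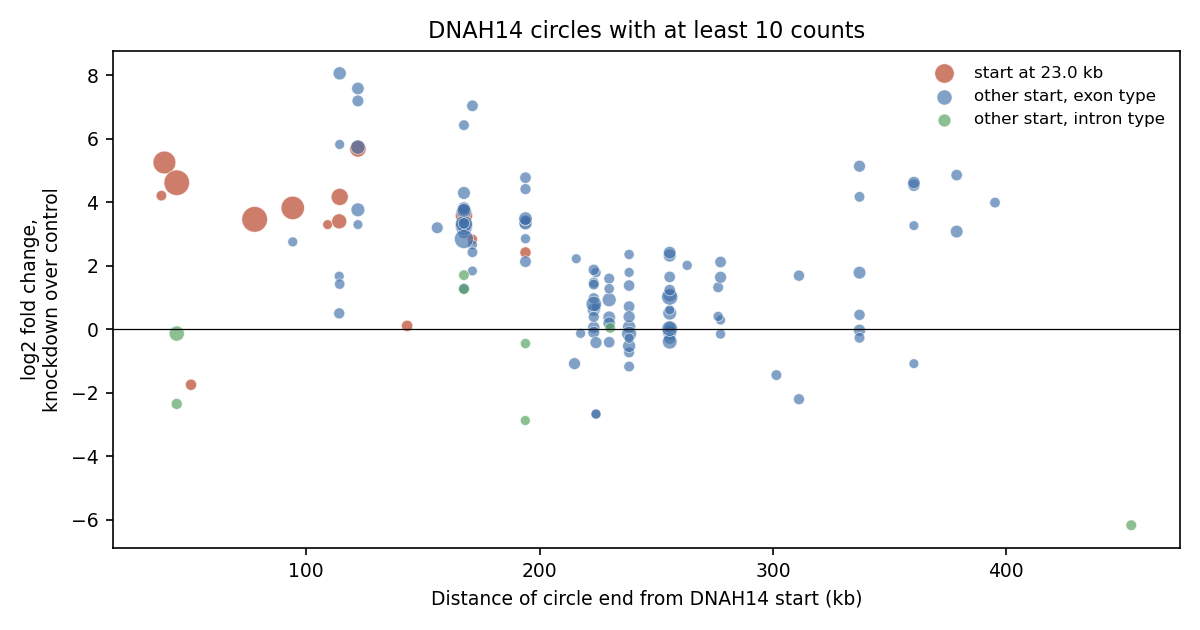
log2 fold change (knockdown over control, edgeR fit over all circles) of the 127 DNAH14 circles with at least 10 counts, against the distance of the circle's end from the gene start in kb, with point area growing with total counts. Circles that end between 200 and 320 kb lie around 0 (median 0.46), and the 14 that start at 23.0 kb have a median of 3.53.

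Of the 127 DNAH14 circles with at least 10 counts, 100 had a log2 fold change above 0 in the fit over 21576 circles, and the range was -6.17 to 8.06 with a median of 1.68. The median over all circles tested was -0.39, so most of these were below 0. In the classes above, 13 of 14 circles from the 23.0 kb start were above 0. For other starts the count was 25 of 27 with a median of 3.30 for ends by 167.6 kb, 12 of 14 with a median of 3.10 for ends up to 200 kb, 40 of 58 with a median of 0.46 for ends from 200 to 320 kb, and 10 of 14 with a median of 3.17 beyond. The 10 intron-type circles had a median of -0.29, with 4 above 0. The gene and the classes were chosen with these values known, so nothing is read from the counts above 0. A circle that reached 10 counts through 1 group alone had to differ, and these 127 are not all the members. Over all circles edgeR's quasi-likelihood test called 0 of 21576 (0%) at an adjusted p under 0.05, with 2895 at an unadjusted p under 0.05, and DESeq2 called 1052.

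The log2 fold changes of the 4 leading circles were 5.26 ± 0.78, 4.62 ± 0.86, 3.47 ± 0.53 and 3.83 ± 0.49 (SE) in the order of their ends. Without control replicate 2 the first 3 became 7.40, 6.80 and 4.28. The SE of each is the model's and covers 2 libraries against 2.

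In level, 82 of the 127 circles were higher in both knockdown libraries than in both controls, 6 were lower and 39 overlapped. Over all circles with at least 10 counts, 23.2% were higher and 22.9% lower in this sense. Without control replicate 1, 85 DNAH14 circles were higher and 24 lower, beside 29.2% and 44.9% of all circles. In share of the gene, 35 were higher, 49 lower and 43 overlapped, beside 24% and 18.6% of the 16724 circles compared within their genes. Of the 49 with a lower share, 27 had a level ratio above 1. The contrast chose the gene, so nothing is read from these counts.

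The span of the circles along the gene moved with the groups. In the controls, the point covered by most circles lay at 223 kb with 59.2% of the counts and at 215 kb with 55.4%. In the knockdowns it lay at 24 kb with 52.5% and 55.4%. At 230 kb, 43.6% and 38.9% of control counts and 11.1% and 11.99% of knockdown counts came from circles that span the point. At 150 kb the shares were nearer, at 40.6%, 33.8%, 29.9% and 27.8%.

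**Figure D5:**
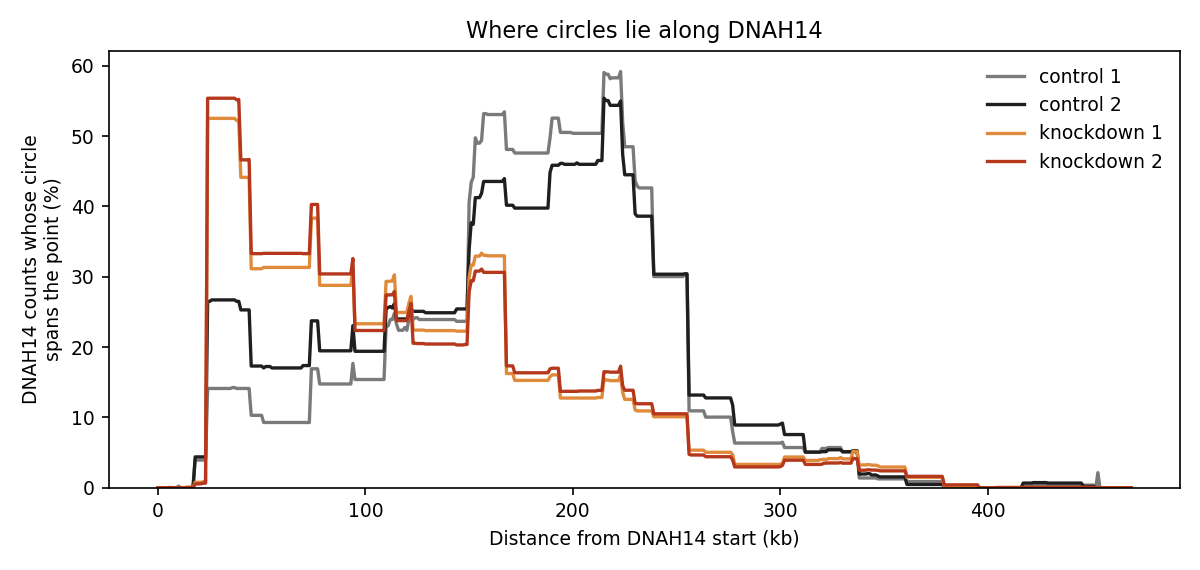
Percent of DNAH14 counts from circles that span each point of the gene, by distance from the gene start in kb, 1 line per library. The control lines peak at 223 and 215 kb and the knockdown lines at 24 kb.

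Weighted by counts, the median DNAH14 circle was 1658 and 1472 nt long in the controls and 1271 nt in both knockdowns. It had 11 and 12 exons in the controls and 9 in both knockdowns, and it spanned 71.2 and 70.9 kb against 54.9 kb. Over all circles the median length was 1356 and 1255 nt in the controls and 1380 and 1278 nt in the knockdowns, which overlap. The mean midpoint of DNAH14 circles, as percent of the gene's length from its start, was 37.9 and 33.9 in the controls, against 23.4 and 22.6 in the knockdowns. This is a move by -12.9 points, and over the 227 genes with at least 1000 counts the median move was -0.09 points, with 2 genes below DNAH14. Over the 1720 genes with at least 100 counts it was 0.09 points, with 55 below.

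The summed change in use can be given as a distance, the percent of counts that would have to be reassigned to turn one set of DNAH14 shares into another. It was 57.8% between the group means, 43.1% between the 2 controls and 13.5% between the 2 knockdowns. Single control and knockdown libraries were 54.5% to 65.5% apart. With each library thinned to 786 DNAH14 counts the distance between the group means was 58.6%, and the distances within groups were 44.6% and 21.8%. The controls lay farther from each other than the knockdowns did. Over 246 host genes with at least 1000 counts the median distance between groups was 26.3%, and 8 were above DNAH14. Over 1881 genes with at least 100 counts it was 46.8%, and 546 were above. Distances grew when counts were thinned, so genes with few counts are not compared with DNAH14 on equal terms. In the test of unequal circle use within genes by edgeR's F test, 94 of 2327 genes (4.04%) passed an adjusted p of 0.05, and this count ranged from 1 to 1064 when single libraries were left out.

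In level over the 4 libraries, the 3 host genes nearest to DNAH14 among 2038 compared were GPBP1, CCDC7 and KIF20B, by Euclidean distance on centred log2 counts per 100000 (0.11, 0.14 and 0.18). GPBP1 had 66, 112, 215 and 355 counts, CCDC7 had 62, 117, 189 and 329, and KIF20B had 114, 189, 329 and 589, in control 1, control 2, knockdown 1 and knockdown 2. In the pair of distances between and within groups, the nearest genes were ZNF680 (57.2% between and at most 42.7% within), ZBTB11 (58.5% and 42.9%) and HPS3 (56.5% and 43.8%). This likeness covers the 2 distances alone. Counts over the libraries were 300, 208 and 281 for these genes, against 9414 for DNAH14. The midpoints of their circles moved by 10.7, 6.58 and -3.20 points, against -12.9 for DNAH14.

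No call was made among the other axonemal dynein genes. The list held 35 genes for heavy, intermediate and light chains, assembly factors and docking proteins. Of these 17 had circular counts and 9 could be tested. None passed an adjusted p of 0.05 by edgeR's quasi-likelihood test, 1 was under an unadjusted p of 0.05, and DESeq2 also called 0. Their median log2 fold change was 0.06, with 5 above 0, against -0.27 over all host genes. With library-size scaling it was -0.31, with 4 above 0, against -0.67.

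DNAH11, another heavy chain, had 145 and 204 counts in the controls, against 73 and 122 in the knockdowns, a log2 fold change of 0.06 ± 0.38 (SE; adjusted p = 0.961, edgeR). DNAH5, a heavy chain of the outer dynein arm, had 67 and 95 against 21 and 45, at -0.41 ± 0.41 (adjusted p = 0.673, edgeR). DNAI4, an intermediate chain gene, had 34 and 38 against 40 and 84, at 1.67 ± 0.40 (adjusted p = 0.0836, edgeR). The number of the 9 that passed was 1 without control replicate 1, where 21.4% of all host genes passed, and 4 without control replicate 2, where 35.8% did. It was 1 with the replicate number as a block, where 5.31% passed. With no filter on low counts 17 dynein genes were tested and 1 passed, beside 3.19% of all host genes.

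Genes listed around DNAH14 on chromosome 1, between positions 223701597 and 226408093, were mixed. Of 17 listed neighbours, 15 had counts and 13 were tested, and their median log2 fold change was -0.49 with 5 above 0. Circles of WDR26, a subunit of an E3 ubiquitin ligase complex, rose from 15.0 and 13.1 per 100000 in the controls to 46.3 and 54.0 in the knockdowns, a log2 fold change of 2.15 ± 0.38 (SE; adjusted p = 0.0314, edgeR). Those of SRP9, a protein of the signal recognition particle, rose from 6.35 and 3.77 to 18.7 and 19.7, at 2.27 ± 0.39 (adjusted p = 0.0303, edgeR). The groups did not overlap for either gene. WDR26 ends at 224434797 and SRP9 starts at 225777826, and other listed genes lie between each of them and DNAH14. These were 2 of 13 neighbours, beside 1.47% of all host genes that rose. The list was chosen with earlier results of these data known, so nothing is read from this number. LBR, named for its place next downstream of DNAH14 and not by the rule, after its values were seen, is a receptor of the inner nuclear membrane and had 63 and 86 counts against 21 and 21, at -0.88 ± 0.42 (adjusted p = 0.366, edgeR). The number of neighbours that passed was 0 without knockdown replicate 1, without knockdown replicate 2, with the other dispersion method of edgeR, or with circles of several genes counted for each gene. It was 4 without control replicate 2, where 35.8% of all host genes passed.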

How the data were processed

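The deposited counts are whole reads per back-splice position, called by CIRI-long per the file headers, for 2 control and 2 knockdown libraries. Its version and the aligner are not given in the sources used here. The genome build GRCh38.p14 and DESeq2 are named in the submitters' processing notes. A second deposited table of scaled values was not used. Other values used are circle lengths, exon chains and gene names from the authors' columns.

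Shares are percent of a library's DNAH14 counts, and levels are counts per 100000. Circles or host genes with at least 10 counts were fitted with edgeR 4.0.16 (quasi-likelihood, TMM, R 4.3.3) and Benjamini-Hochberg adjustment over all tested. The default dispersion method was kept after an earlier analysis had seen both methods' results. DESeq2 1.42.0 was an alternative, as were scaling, filters and leaving out each library. Circles with at least 5% of DNAH14 counts in a library were named, as were the 3 nearest genes by level and by use. List members were named where they passed, or else the 3 with most counts, and LBR was added outside this rule. Members, lists and classes were chosen with earlier results of these data known. The fits were checked on simulated data drawn with the same spread in both groups. The coefficients of variation here were 0.886 in the controls and 0.140 in the knockdowns. That check does not cover such unequal spread.

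With 2 against 2 libraries, an exact permutation test cannot go below 0.333. P-values measure the spread between these libraries only. Same-numbered libraries deviated together with a correlation of 0.071 over 4944 circles, so replicate numbers were treated as names.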

Additional observations from a re-analysis of the deposited data

Results flagged for a closer look

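The 10 antisense positions at DNAH14 were outside the comparisons, and their circles were above the control level in both knockdown libraries. They had 2 and 3 counts in the controls, against 7 and 7 in the knockdowns. The level was 0.423 and 0.539 per 100000 in the controls (mean 0.481 ± 0.0818, SD, n = 2), and 2.48 and 1.79 in the knockdowns (mean 2.13 ± 0.483). The 5 control counts in all and 7 per knockdown library leave a wide counting error. Relative to the sense circles of the gene, antisense counts were 0.254%, 0.203%, 0.262% and 0.156% in control 1, control 2, knockdown 1 and knockdown 2, which overlap between groups.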

How the results depend on the processing

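The difference in share of the 23.0 kb start (36.9 points), the log2 fold change of DNAH14 and those of its 4 leading circles kept their direction under every alternative run. The share of DNAH14 circles that end by 225097239 was higher by 41.1 points after knockdown, and by 46.1 with exon circles alone. Leaving out single libraries moved the distance between groups to 54.5% to 65.3% and the log2 fold change of DNAH14 to 2.15 to 3.25. The number of DNAH14 circles with a lower level in both knockdowns was 24 of 127 without control replicate 1, chosen after seeing the data, against 6. Over all circles with at least 10 counts the shares were 44.9% without control replicate 1 and 22.9% with it.

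The count of genes with unequal circle use was 94, and it was 299 with a minimum of 5 counts in 2 libraries, 313 under the other dispersion option and 520 with the replicate block. It was between 1 and 1064 without single libraries. Host genes that passed numbered 89, and 326 with no filter, 51 with a minimum of 5 counts in 2 libraries, 0 under the other dispersion option, 314 with the replicate block, 153 by DESeq2, 37 with circles of several genes counted for each, and 14 to 2114 without single libraries. Single circles that passed numbered 0, and 471 with no filter, 1404 with 5 counts in 2 libraries, 1653 with the replicate block, 1052 by DESeq2 and 0 to 6223 without single libraries. Axonemal dynein genes that passed numbered 0 to 4 without single libraries, 1 with the replicate block and, added later, 1 with no filter. Neighbours that passed numbered 1 with library-size scaling, 0 to 4 without single libraries, and, in alternatives added later, 0 under the other dispersion option and 0 with circles of several genes counted for each. With the replicate block the log2 fold change of DNAH14 was 2.62 ± 1.06 (SE).

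Within the gene, shares are least precise where DNAH14 has few counts: 3 counts are 0.382% of DNAH14 counts in control replicate 1 and 0.067% in knockdown replicate 2. There are 2 libraries per group, 1 hairpin, and no molecular identifiers.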

Other observations

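The use of circles can be set beside its spread within groups in 3 other dynein genes. For DNAI4 the distance between groups was 70.5%, the control pair was 54.5% apart and the knockdown pair 33.0%. The mean midpoint of its circles lay at 21.2% and 28.7% of the gene's length in the controls and at 37.8% and 32.7% after knockdown, with no overlap and a difference of 10.3 points. For DNAH11 the distance between groups was 58.7%, below the 68.1% between its controls. For DNAH5 it was 40.5%, close to the 35.2% within the controls and 38.4% within the knockdowns. The midpoints of DNAH11 and DNAH5 differed by 1.06 and 0.94 points between the groups, inside the middle range of -2.92 to 3.29 points (first to last quartile) over 1720 genes with at least 100 counts.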
